A study of Mus musculus with 14 samples.

Results

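Collagen chain genes encode the polypeptides that assemble by threes into collagen, the main structural protein of the arterial wall and of the tissue around it. They were taken here as every gene whose symbol is Col, a number, the letter a and a number, carried alone by its probe set on the array. This rule uses no measured value and gave 44 genes on 47 probe sets, out of 22180 genes with a symbol of their own. Col1a2, Col5a1 and Col6a1 have 2 probe sets each, which were averaged, and 1 further probe set that lists a collagen chain together with other symbols was left out.

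The samples came from male mice that ate a Western type diet, rich in fat and cholesterol, for 4 weeks from the age of 8 weeks and were 12 weeks old when sampled. The ApoE/LTbR-double deficient mice lacked apolipoprotein E and the lymphotoxin beta receptor, and their ApoE deficient littermates lacked apolipoprotein E alone, so both groups carry the loss that leads to high plasma cholesterol and atherosclerosis. Aorta together with its perivascular fat was taken as 4 double-deficient and 4 ApoE-deficient samples, each a single RNA preparation. CD115+ cells (CD115 is the product of Csf1r and marks blood monocytes) were drawn from blood with magnetic beads after Ficoll centrifugation as 3 double-deficient and 3 ApoE-deficient preparations, of which ApoE-deficient replicates 3 and 4 were each a pool of 2 littermates. The deficiencies are of the whole animal as labelled, and the labels name no promoter or cell type that would confine them. Whether a mouse gave both an aorta and blood is not in the labels. All values are log2 signals from which the probe set's median in that tissue was subtracted, differences are double-deficient minus ApoE-deficient, and the number of arrays limits their precision. Levels therefore cannot be compared between genes or between tissues.

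Each collagen chain is built around a long run of Gly-X-Y repeats, in which the regular glycines let the chains wind into a triple helix. The fibril-forming types I, III and V give the artery its tensile strength and are made by fibroblasts and smooth muscle cells. Type IV forms the sheet of the basement membrane under endothelium and around muscle and fat cells, type VI makes beaded microfibrils, type VIII forms short-chain networks in the vessel wall, and the fibril-associated types decorate the surface of fibrils. Blood monocytes are not a known source of fibrillar collagen in bulk. In these bulk samples, fewer cells of a type and less RNA per cell cannot be told apart.

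Stretches at or before the starts of 4 of the genes described below were read from RefSeq (GRCm38.p6), which lists a start window for 35 of the 44 genes, 38 windows in all. Col4a1 and Col4a2, the ubiquitous chains of type IV collagen, lie head to head. Their annotated starts on opposite strands overlap by 22 bases at chr8:11312805-11312826, which lie after both starts and not upstream of them. They are printed on the plus strand because the pair is described together below, with a GC box (GGGCGG on either strand) in capitals.
Col4a1 and Col4a2 starts: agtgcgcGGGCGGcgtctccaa
The 250 bases before the start of Col1a2 (chr6:4505368-4505617, plus strand) and of Col3a1 (chr1:45311288-45311537, plus strand) are shown because these genes encode chains of the main interstitial fibrils. Capitals mark the CCAAT box (its letters, on either strand), the GC box as above and the TATA box (TATAAA, on either strand).
Col1a2 upstream: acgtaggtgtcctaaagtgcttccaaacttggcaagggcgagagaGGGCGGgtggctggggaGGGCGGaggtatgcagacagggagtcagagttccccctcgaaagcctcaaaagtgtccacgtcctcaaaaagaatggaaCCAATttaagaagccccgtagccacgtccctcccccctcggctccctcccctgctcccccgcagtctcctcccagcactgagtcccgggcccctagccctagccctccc
Col3a1 upstream: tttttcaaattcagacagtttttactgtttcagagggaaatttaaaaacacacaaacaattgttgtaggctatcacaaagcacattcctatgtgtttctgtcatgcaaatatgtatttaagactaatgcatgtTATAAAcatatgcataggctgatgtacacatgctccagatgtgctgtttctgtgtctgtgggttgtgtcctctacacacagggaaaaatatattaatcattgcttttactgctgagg
The Col1a2 stretch holds a CCAAT that begins 109 bases before the start and GGGCGG at 205 and 188 bases before it, while the Col3a1 stretch holds neither of these letters and has TATAAA at 117 bases. Of all 32851 windows of 250 bases, 33.8% hold CCAAT, 32.7% GGGCGG and 12.4% TATAAA, and of the 38 collagen windows 13, 22 and 5 do. These are matches of letters and not shown to be sites.

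The targeted gene was checked first. Ltbr stood at -0.98, -1.10, -1.29 and -0.49 in double-deficient aortas (replicates 1 to 4), against 0.63, 0.49, 0.70 and 0.89 in ApoE-deficient aortas, and at -0.07, -0.62 and -0.44 in double-deficient CD115+ cells, against 0.55, 0.07 and 0.40 in ApoE-deficient ones. The groups did not overlap in either tissue. Where its probe set lies relative to the deleted part is not in the labels.

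In the aorta, the collagen chain genes were read 1 by 1, and the family as a whole was not tested. None of the 44 genes passed an adjusted p of 0.05 in limma (0 of 44, where 0.00451% of all genes did), and the smallest adjusted p among them was 0.467. Ltbr did not pass it either, so a miss at this threshold does not show that a gene is unchanged. At an unadjusted p under 0.05, 2 genes were higher (3.91% of all genes were) and 0 were lower (3.81% of all genes were). The same 2 genes were those whose groups did not overlap with the double-deficient group higher (2.19% of all genes), and 0 did so the other way (2.11%). With 44 genes, 2 is a share of 4.55%, near the background. The differences ran from -0.51 to 0.60 with a median of 0.05, beside 0.01 over all genes. Of the 44 differences 32 (72.7%) were above 0, against 52.8% of all genes. For 33 of 44 genes the difference was under 0.2 in size.

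**Figure D1:**
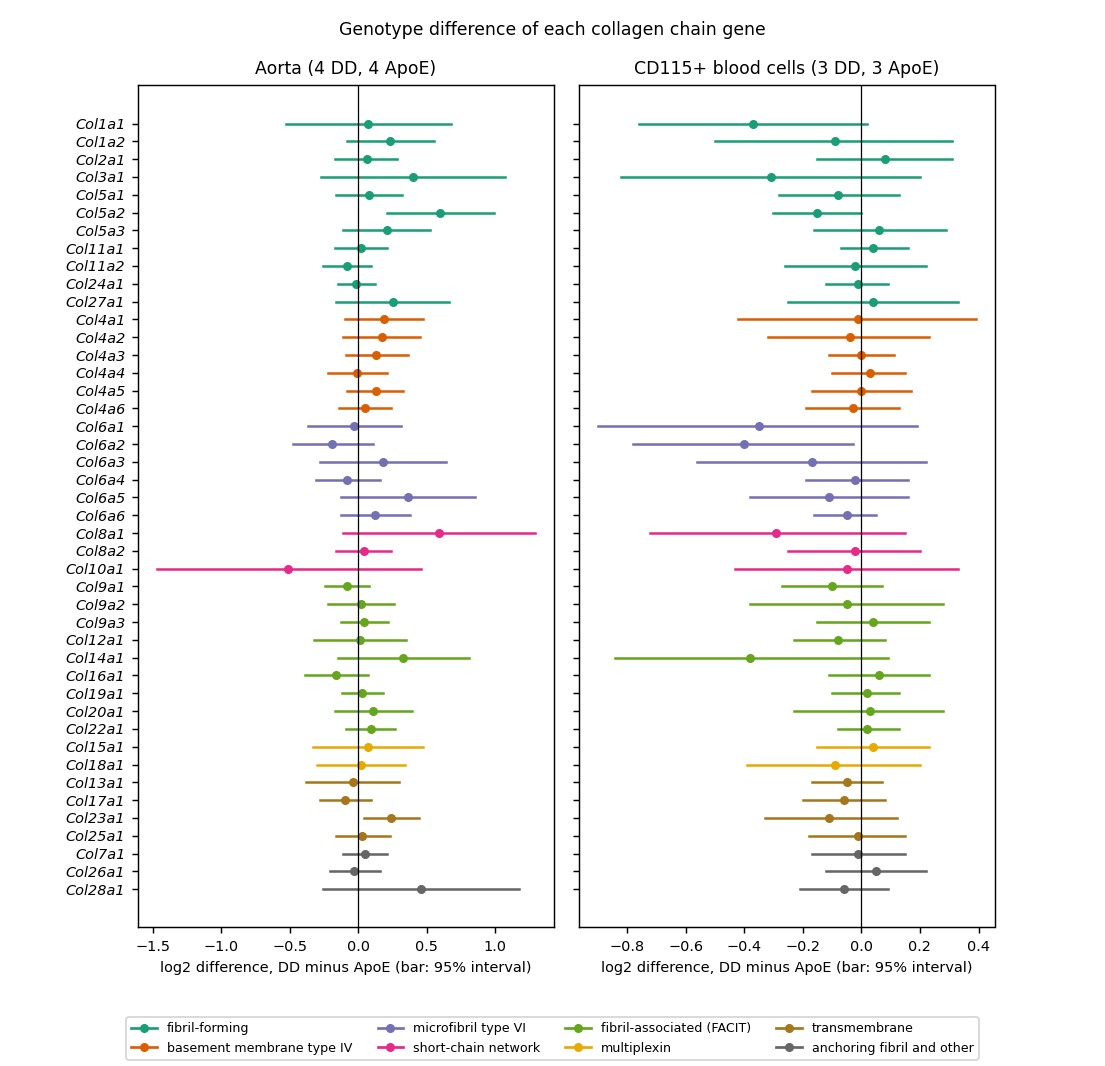
Log2 difference, double-deficient (DD) minus ApoE-deficient (ApoE), of each of the 44 collagen chain genes in aorta (left, 4 against 4 samples) and CD115+ blood cells (right, 3 against 3). Points are limma estimates and bars their 95% intervals, coloured by collagen class; in aorta the intervals of Col5a2 and Col23a1 alone lie above 0, and in CD115+ cells that of Col6a2 lies below 0.

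Col5a2, the alpha 2 chain of type V collagen, which sits inside type I fibrils and limits their width, had the smallest p of the family. It stood at 0.52, 0.16, 0.17 and 0.01 in double-deficient aortas, against -0.55, -0.68, -0.30 and -0.01 in ApoE-deficient aortas. All 4 double-deficient samples lay above all 4 ApoE-deficient ones, but replicate 4 of each group lay close to the other, at 0.01 and -0.01. The difference was 0.60 (SE 0.17, 95% interval 0.21 to 0.99, 1.52-fold) at an unadjusted p of 0.00726, with an adjusted p of 0.467 in limma. The exact two-sided permutation test of this gene gave 0.0286, not adjusted over the 44 genes. This is the smallest p that 4 against 4 samples allow, and groups that do not overlap always give it. The difference ran from 0.50 to 0.73 over the 8 fits that left out 1 sample. Its partner chain Col5a1 stood at 0.20, 0.06, 0.03 and -0.20 in double-deficient aortas, against -0.03, -0.16, 0.11 and -0.15 in ApoE-deficient aortas. It differed by 0.08 (SE 0.10) and the third chain, Col5a3, by 0.21 (SE 0.14), both with overlapping groups.

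Col23a1 encodes a transmembrane collagen and was the other gene without overlap. It stood at 0.03, 0.17, 0.30 and 0.01 in double-deficient aortas, against -0.10, -0.12, -0.22 and -0.01 in ApoE-deficient aortas. As for Col5a2, replicate 4 of both groups lay next to 0. The difference was 0.24 (SE 0.09, adjusted p = 0.564 in limma), and the exact permutation p was again 0.0286, fixed by the lack of overlap. The other transmembrane chains, Col13a1, Col17a1 and Col25a1, differed by -0.04, -0.10 and 0.03.

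**Figure D2:**
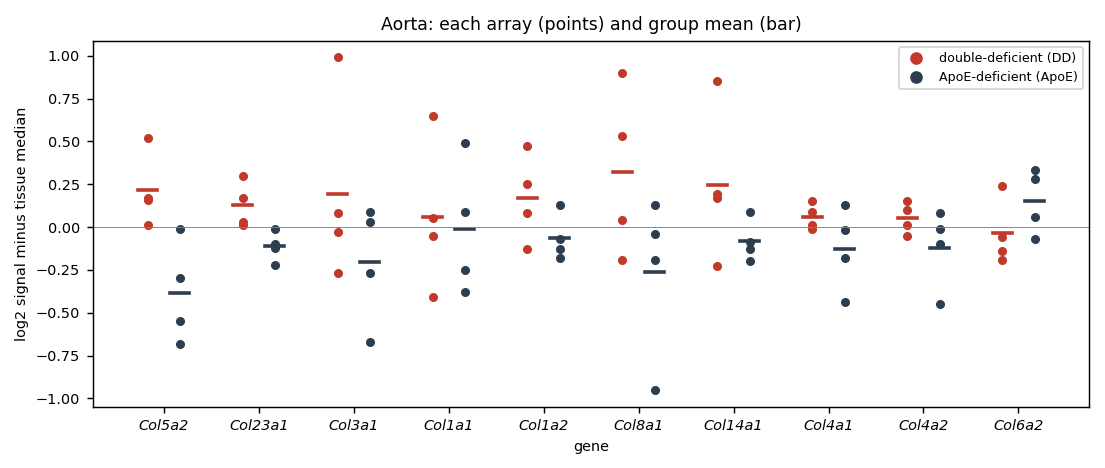
Log2 signal relative to the aorta median (vertical axis) of 10 collagen chain genes in each double-deficient (DD, red, left) and ApoE-deficient (ApoE, dark, right) aorta; points are arrays and bars group means of 4. The groups are apart, narrowly, for Col5a2 and Col23a1 and overlap for the other 8 genes.

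The chains of the abundant interstitial fibrils, types I and III, had overlapping groups. Col1a1, which gives 2 of the 3 chains of type I collagen, stood at 0.65, 0.05, -0.41 and -0.05 in double-deficient aortas, against 0.09, -0.38, -0.25 and 0.49 in ApoE-deficient aortas. The highest and the lowest of the 8 samples were both double-deficient. The difference was 0.07 (SE 0.26, 95% interval -0.53 to 0.68), and it ran from -0.12 to 0.24 when 1 sample was left out, so that no direction was settled. Col1a2, the remaining type I chain, stood at 0.47, 0.25, -0.13 and 0.08 in double-deficient aortas, against -0.07, -0.13, -0.18 and 0.13 in ApoE-deficient ones. Only double-deficient replicates 1 and 2 lay above the ApoE-deficient range. Its difference was 0.23 (SE 0.14, 95% interval -0.08 to 0.55), with 0.29 and 0.17 on its 2 probe sets, and it was 0.13 when double-deficient replicate 1 was left out.

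Col3a1, the chain of type III collagen that dominates in distensible vessels, stood at 0.99, -0.03, -0.27 and 0.08 in double-deficient aortas, against 0.09, -0.67, -0.27 and 0.03 in ApoE-deficient aortas. Double-deficient replicate 1 stood far above the other 7 samples, which overlapped. The difference of 0.40 (SE 0.29, 95% interval -0.27 to 1.07) was 0.13 when double-deficient replicate 1 was left out, and 0.24 when ApoE-deficient replicate 2 was. The cartilage-type fibrillar chains Col2a1, Col11a1 and Col11a2 differed by 0.06, 0.02 and -0.08, and the minor chains Col24a1 and Col27a1 by -0.02 and 0.25. Of the 11 fibril-forming genes 9 had a difference above 0 (52.8% of all genes did), with a median of 0.08. At an unadjusted p under 0.05, 1 (Col5a2) was higher (3.91% of all genes were).

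Type IV collagen showed small and overlapping differences. Col4a1 stood at 0.09, 0.01, -0.01 and 0.15 in double-deficient aortas, against -0.18, -0.44, -0.02 and 0.13 in ApoE-deficient aortas. Col4a2 stood at 0.01, 0.10, -0.05 and 0.15 in double-deficient aortas, against -0.10, -0.45, -0.01 and 0.08 in ApoE-deficient aortas. In both genes ApoE-deficient replicate 2 was the lowest sample and double-deficient replicate 4 the highest. The differences were 0.19 (SE 0.12) for Col4a1 and 0.17 (SE 0.12) for Col4a2, and they were 0.08 and 0.06 when ApoE-deficient replicate 2 was left out. The chains Col4a3, Col4a4, Col4a5 and Col4a6, of which Col4a3 to Col4a5 build the basement membrane of the kidney glomerulus, differed by 0.13, -0.01, 0.13 and 0.05. Col15a1 and Col18a1, which carry heparan or chondroitin sulphate chains beside basement membranes, differed by 0.07 (SE 0.17) and 0.02 (SE 0.14). Col15a1 stood at 0.29, -0.02, -0.35 and 0.34 in double-deficient aortas, against -0.15, 0.02, -0.16 and 0.28 in ApoE-deficient aortas. Col18a1 stood at 0.33, 0.14, -0.22 and -0.04 in double-deficient aortas, against 0.28, 0.04, -0.12 and -0.07 in ApoE-deficient aortas. The groups overlapped in both, and the sign of both turned in some fits without 1 sample.

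Type VI collagen had no common direction. Its 3 classical chains, Col6a1, Col6a2 and Col6a3, differed by -0.03 (SE 0.15), -0.19 (SE 0.13) and 0.18 (SE 0.20). Col6a2 stood at 0.24, -0.19, -0.14 and -0.06 in double-deficient aortas, against 0.33, -0.07, 0.06 and 0.28 in ApoE-deficient aortas, and double-deficient replicates 1 and 4 lay within the ApoE-deficient range. Without double-deficient replicate 1 its difference was -0.28. Col6a1 stood at 0.18, 0.07, -0.48 and -0.09 in double-deficient aortas, against 0.12, -0.04, -0.10 and -0.18 in ApoE-deficient aortas. Col6a3 stood at 0.38, -0.01, 0.01 and -0.35 in double-deficient aortas, against 0.12, -0.36, -0.52 and 0.08 in ApoE-deficient aortas. In Col6a1 the double-deficient group held both the highest and the lowest sample, and Col6a3 also overlapped. The difference of Col6a3 was 0.06 when either double-deficient replicate 1 or ApoE-deficient replicate 3 was left out. Col6a1 gave 0.07 on the first of its probe sets and -0.13 on the other, so its sign depended on the probe set. Col6a5, an alternative chain, stood at 0.55, 0.52, -0.17 and 0.08 in double-deficient aortas, against -0.08, -0.18, -0.48 and 0.29 in ApoE-deficient aortas, a difference of 0.36 (SE 0.21) between overlapping groups.

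Several genes of the remaining classes varied widely between arrays. Col8a1, a network collagen of the vessel wall made by smooth muscle and endothelial cells, stood at 0.90, 0.53, -0.19 and 0.04 in double-deficient aortas, against -0.95, -0.19, 0.13 and -0.04 in ApoE-deficient aortas. The lowest double-deficient sample and the highest ApoE-deficient sample overlapped, and replicate 1 of each group gave the extremes. Its difference was 0.59 (SE 0.30, 95% interval -0.11 to 1.29, adjusted p = 0.699 in limma), and 0.36 to 0.76 when 1 sample was left out. Col10a1, known from hypertrophic cartilage, stood between -0.07 and 0.01 in double-deficient aortas, against -0.47, 1.79, 0.42 and 0.19 in ApoE-deficient aortas. Its difference of -0.51 (SE 0.42) was the lowest of the family and was carried by ApoE-deficient replicate 2. Col14a1, which binds the surface of type I fibrils, stood at 0.85, 0.19, -0.23 and 0.17 in double-deficient aortas, against -0.09, -0.13, -0.20 and 0.09 in ApoE-deficient aortas. Double-deficient replicate 1 again stood apart at the top, and the difference was 0.33 (SE 0.21). Col16a1, another fibril-associated chain, stood at 0.04, 0.00, -0.14 and -0.05 in double-deficient aortas, against 0.00, 0.18, 0.36 and -0.02 in ApoE-deficient aortas. It differed by -0.16 (SE 0.10), and the 9 genes of that class ran from -0.16 to 0.33.

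**Figure D3:**
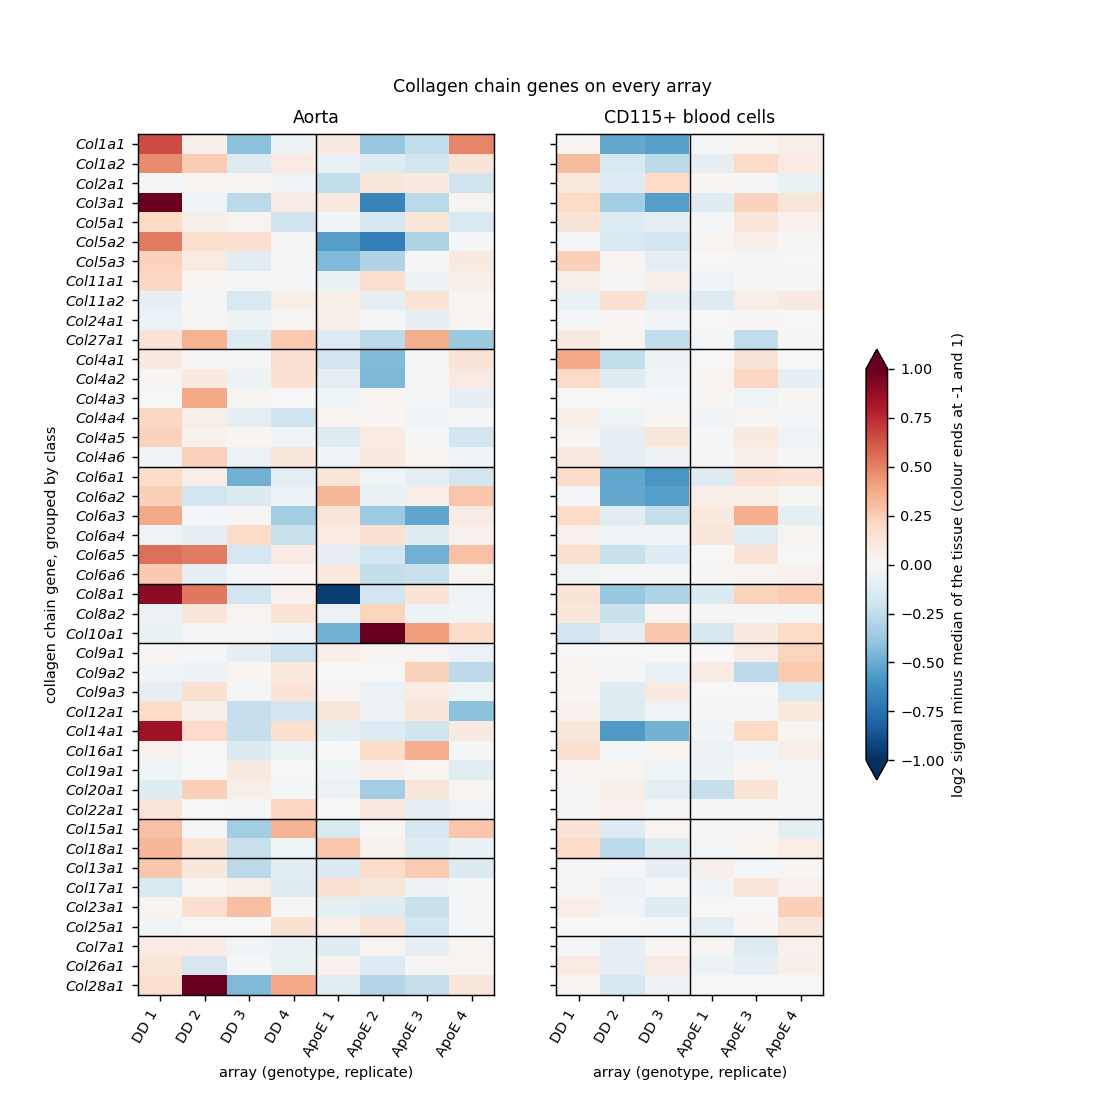
Log2 signal relative to the tissue median of the 44 collagen chain genes (rows, grouped by class) on the 8 aorta arrays (left) and 6 CD115+ arrays (right), double-deficient (DD) left of ApoE-deficient (ApoE); red is above and blue below the median, and colours end at -1 and 1. Double-deficient aorta replicate 1 is the highest aorta array for 20 of 44 genes (12.7% of all genes). Double-deficient CD115+ replicates 2 and 3 are the lowest CD115+ arrays for 17 and 12 of 44 (23.2% and 20.6% of all genes).

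A few arrays held the extreme value of many of these genes. Double-deficient aorta replicate 1 was the highest of the 8 arrays for 20 of 44 collagen chain genes, while it was the highest for 12.7% of all genes. Double-deficient replicate 3 was the lowest array for 10 of 44, beside 15.5% of all genes. In these arrays the median of 8 fibroblast markers (Pdgfra, Dpt, Pi16, Lum, Dcn and others) was 0.37, 0.18, -0.45 and -0.08 in double-deficient aortas, against -0.16, -0.09, 0.00 and 0.19 in ApoE-deficient aortas. The fibroblast markers were thus highest and lowest in the same 2 samples as Col1a1, and 6 of 8 had a difference above 0. In this tissue 52.8% of all genes had a difference above 0. The median of 8 smooth muscle markers was 0.23, 0.48, 0.05 and -0.02 in double-deficient aortas, against -0.17, -0.33, -0.05 and 0.03 in ApoE-deficient aortas, with 8 of 8 differences above 0 and a median of 0.30. The median of 8 endothelial markers was 0.10, 0.17, -0.08 and 0.12 in double-deficient aortas, against 0.04, -0.14, -0.03 and -0.10 in ApoE-deficient aortas, with 8 of 8 above 0 and a median of 0.15. Both lists thus lay on the same side as the differences of most collagen, collagen receptor and basement membrane genes. The median of 8 macrophage markers was 0.70 in double-deficient replicate 1 and between -0.14 and 0.21 in the other 7 aortas. The B cell marker median (7 genes) was -0.49 to -0.17 in double-deficient aortas, against 0.03 to 2.44 in ApoE-deficient ones, and that of the T cell markers (7 genes) was -1.51 to -0.15 in double-deficient aortas, against 0.31 to 1.10 in ApoE-deficient ones. The skeletal muscle median (9 genes) was -1.27, -1.39, -0.98 and 1.59 in double-deficient aortas, against -1.42, 1.88, 2.11 and 0.78 in ApoE-deficient aortas. Of its 9 differences 0 were above 0. Of 8 chondrocyte and of 7 mesothelial markers 2 each had a difference above 0, and of 8 adipocyte markers 5. The mesothelial median was highest in ApoE-deficient replicate 2, at 1.07. The part of these cell markers in the values of the collagen, receptor and basement membrane genes was not tested. The median difference of the 44 genes was 0.05 without double-deficient replicate 1 as well, and 0.10 without double-deficient replicate 3, where 6 genes were higher at an unadjusted p under 0.05 (4.43% of all genes in that fit).

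Chains that assemble into the same molecule, or whose genes are neighbours, were compared over the 8 aortas in 14 pairs. Col4a1 and Col4a2, which share the head-to-head start printed above, had the highest Pearson r of the 14 pairs, 0.96 (exact permutation p = 0.00104, adjusted over the 14 pairs p = 0.0146), with a Spearman rho of 0.90 (exact permutation p = 0.00456, adjusted p = 0.0639). Without the 2 samples farthest from the Col4a1 median r was 0.71, and it was 0.94 once the group means were removed. Col1a1 and Col1a2, which lie on different chromosomes, had an r of 0.84 (exact permutation p = 0.00888, adjusted p = 0.0622) and a rho of 0.79 (exact permutation p = 0.0279, adjusted p = 0.195), with 0.68 without the 2 farthest samples. Once the group means were removed, r of this pair was also 0.94, equal to that of Col4a1 and Col4a2. The neighbours Col3a1 and Col5a2 had an r of 0.71 (exact permutation p = 0.0416, adjusted p = 0.194) and a rho of 0.43 (exact permutation p = 0.299, adjusted p = 0.654), which turned to -0.22 without the 2 farthest samples and so rested on them. Among the other 11 pairs r ran from -0.54 to 0.50. The head-to-head genes Col4a3 and Col4a4 had an r of 0.20 (exact permutation p = 0.505, adjusted p = 0.685) and a rho of 0.17 (exact permutation p = 0.703, adjusted p = 0.757).

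**Figure D4:**
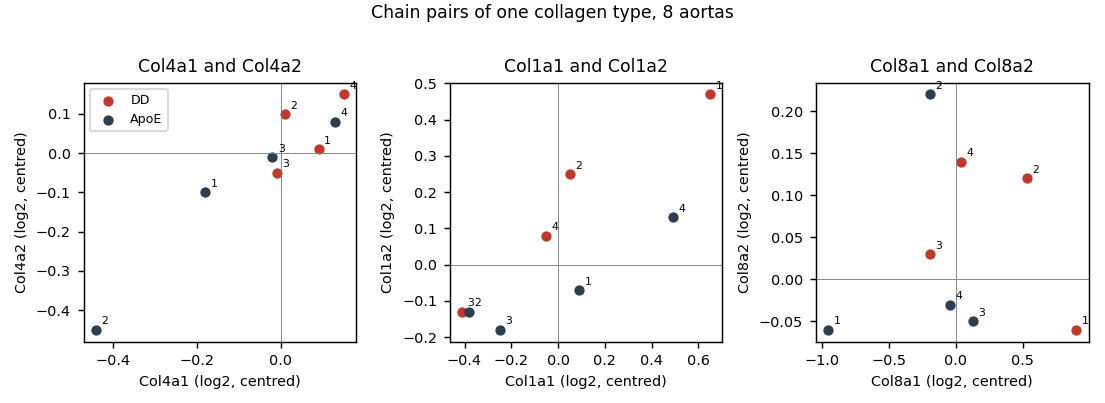
Log2 signal relative to the aorta median of chain pairs of type IV (Col4a1 and Col4a2, left), type I (Col1a1 and Col1a2, middle) and type VIII (Col8a1 and Col8a2, right) in the 8 aortas; points are arrays, numbered by replicate, red for double-deficient (DD) and dark for ApoE-deficient (ApoE). Pearson r is 0.96, 0.84 and 0.02.

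Genes that make, bind, sense and remove collagen were read from lists beside the chains. None of them passed an adjusted p of 0.05 in limma in the aorta. Their counts at an unadjusted p under 0.05 stand beside 3.91% of all genes higher and 3.81% lower. These lists were chosen with earlier results of these data known, so the shares give a scale and not independent support. Of 13 genes of the prolyl and lysyl hydroxylation list 1 was higher at an unadjusted p under 0.05 and 0 were lower: P4ha3, a catalytic subunit of prolyl 4-hydroxylase, differed by 0.21 (SE 0.07). Of 9 genes of folding and export 0 were higher and 0 lower, with Ppib, a prolyl isomerase of the endoplasmic reticulum, at -0.25 (SE 0.13). Of 13 genes of procollagen cleavage and crosslinking 2 were higher and 0 lower, namely the transglutaminase Tgm2 at 0.35 (SE 0.10) and the lysyl oxidase relative Loxl3 at 0.46 (SE 0.16). Of 15 collagen-binding matrix proteins 1 was higher and 0 lower, the proteoglycan Bgn at 0.26 (SE 0.11).

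Among the 11 collagen receptors 3 were higher and 0 lower in the aorta at an unadjusted p under 0.05 (3.91% and 3.81% of all genes). Itga1, the alpha 1 integrin chain that binds type IV and type I collagen, stood at 0.39, 0.27, 0.08 and 0.14 in double-deficient aortas, against -0.08, -0.27, -0.18 and -0.44 in ApoE-deficient aortas. The groups did not overlap, and the difference was 0.46 (SE 0.10, unadjusted p = 0.00221, adjusted p = 0.419 in limma). The collagen-activated kinase Ddr2 differed by 0.57 (SE 0.22) and the collagen uptake receptor Mrc2 by 0.24 (SE 0.09). Of 13 basement membrane partners of type IV collagen 4 were higher and 0 lower (3.91% and 3.81% of all genes). Lama4, the laminin alpha 4 chain of vascular basement membranes, stood at 0.31, 0.07, 0.26 and 0.06 in double-deficient aortas, against -0.36, -0.41, -0.21 and -0.06 in ApoE-deficient aortas, without overlap. It differed by 0.44 (SE 0.10, adjusted p = 0.447 in limma), with Lamb1 at 0.30 and Lama2 at 0.35. The median of that list was 0.24, beside 0.13 for the 6 type IV chains and 0.01 for all genes. As both lists were chosen with earlier results known, their counts and medians were not tested against all genes.

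Of the 14 degrading enzymes and inhibitors 1 was higher, Timp1, an inhibitor of matrix metalloproteinases, and 1 lower, the neutrophil collagenase Mmp8 (-0.32, SE 0.14). Timp1 stood at 1.60, -0.07, 1.23 and 0.07 in double-deficient aortas, against -1.39, -1.04, 0.07 and -0.38 in ApoE-deficient aortas, so that replicates 1 and 3 lay far above the ApoE-deficient range and the other replicates overlapped it. The difference was 1.39 (SE 0.47, adjusted p = 0.547 in limma). In the list of transforming growth factor beta signalling, the pathway best known for inducing fibrillar collagen genes, 2 of 16 were higher and 1 lower. The ligand gene Tgfb1 stood at -0.42, -0.54, -0.58 and -0.16 in double-deficient aortas, against 1.16, 0.35, 0.30 and 0.16 in ApoE-deficient aortas. The groups did not overlap, and the difference was -0.92 (SE 0.22, unadjusted p = 0.00329, adjusted p = 0.46 in limma). The co-receptor Eng, abundant in endothelium, differed by 0.39 (SE 0.10) and the co-receptor Tgfbr3 by 0.23 (SE 0.10).

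In the CD115+ blood cells no collagen chain gene passed an adjusted p of 0.05 in limma (0 of 44, and 0% of all genes), and the smallest adjusted p was 0.976. At an unadjusted p under 0.05, 0 were higher (2.06% of all genes) and 1 was lower (2.33% of all genes). The groups did not overlap for 0 genes with the double-deficient group higher (3.93% of all genes) and for 3 with it lower (5.23% of all genes), namely Col6a2, Col5a2 and Col6a6. Of the 44 differences 13 (29.5%) were above 0, against 44.7% of all genes. Their median was -0.04, beside -0.01 over all genes, and their range was -0.40 to 0.08. With 3 against 3 preparations the exact permutation test of a single gene cannot go below 0.1.

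The genes of widest difference in these cells were Col6a2, Col14a1, Col1a1, Col6a1, Col3a1 and Col8a1, and 1 double-deficient preparation did not share it. Other chains of the same types differed less, with Col1a2 at -0.09 (SE 0.17) and Col6a3 at -0.17 (SE 0.16). Col6a2 stood at -0.01, -0.51 and -0.55 in double-deficient preparations (replicates 1 to 3), against 0.07, 0.06 and 0.01 in ApoE-deficient preparations (replicates 1, 3 and 4). Double-deficient replicates 2 and 3 were low, and replicate 1 lay just under the ApoE-deficient range. Its difference was -0.40 (SE 0.15, 95% interval -0.78 to -0.03, unadjusted p = 0.0376, adjusted p = 0.976 in limma). Col1a1 stood at 0.02, -0.51 and -0.54 in double-deficient preparations, against -0.02, 0.03 and 0.06 in ApoE-deficient preparations. Here double-deficient replicate 1 lay within the ApoE-deficient range, and the difference was -0.37 (SE 0.16). Col14a1 stood at 0.11, -0.57 and -0.47 in double-deficient preparations, against -0.03, 0.20 and 0.03 in ApoE-deficient preparations, a difference of -0.38 (SE 0.19).

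Col6a1 and Col3a1 were also low in double-deficient replicates 2 and 3. Col6a1 stood at 0.18, -0.52 and -0.58 in double-deficient preparations, against -0.13, 0.15 and 0.13 in ApoE-deficient ones, and differed by -0.35 (SE 0.22). Col3a1 stood at 0.20, -0.34 and -0.55 in double-deficient preparations, against -0.12, 0.23 and 0.12 in ApoE-deficient ones, and differed by -0.31 (SE 0.21). In both genes double-deficient replicate 1 was at or near the top of all 6 preparations. Col8a1 stood at 0.14, -0.38 and -0.31 in double-deficient preparations, against -0.14, 0.22 and 0.25 in ApoE-deficient ones, and differed by -0.29 (SE 0.18). Col5a2 stood at -0.01, -0.15 and -0.18 in double-deficient preparations, against 0.03, 0.05 and 0.01 in ApoE-deficient ones, a narrow separation with a difference of -0.15 (SE 0.06). The type IV chains Col4a1 and Col4a2 differed by -0.01 (SE 0.16) and -0.04 (SE 0.11), and the cartilage chains Col2a1, Col11a1 and Col11a2 by 0.08, 0.04 and -0.02.

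**Figure D5:**
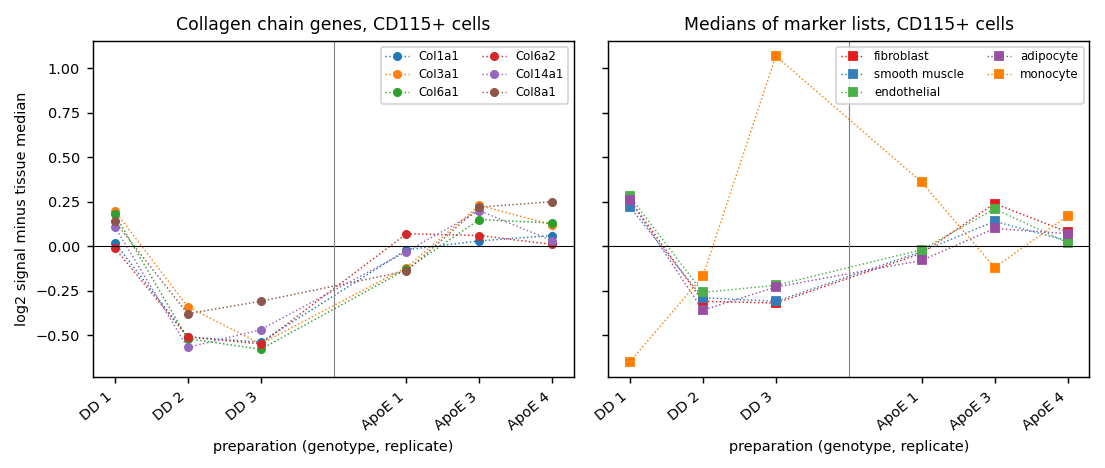
Log2 signal relative to the CD115+ median in the 3 double-deficient (DD) and 3 ApoE-deficient (ApoE) preparations for 6 collagen chain genes (left, points) and for the medians of 5 marker lists (right, squares); dotted lines only join the points of a gene or list. The collagen genes and the fibroblast, smooth muscle, endothelial and adipocyte medians are low in double-deficient replicates 2 and 3 and not in replicate 1, and the monocyte median does not follow them.

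Markers of fibroblasts, vascular cells, fat cells and macrophages were low in the same preparations as these collagen genes. The median of the 8 fibroblast markers was 0.26, -0.31 and -0.32 in double-deficient preparations, against -0.04, 0.24 and 0.08 in ApoE-deficient preparations, and 0 of 8 had a difference above 0. In these cells 44.7% of all genes had a difference above 0. The smooth muscle median (8 genes) was 0.22, -0.29 and -0.31 in double-deficient preparations, against -0.03, 0.14 and 0.03 in ApoE-deficient preparations. The endothelial median (8 genes) was 0.28, -0.26 and -0.22 in double-deficient preparations, against -0.02, 0.21 and 0.02 in ApoE-deficient preparations. The adipocyte median (8 genes) was 0.26, -0.36 and -0.23 in double-deficient preparations, against -0.08, 0.10 and 0.07 in ApoE-deficient preparations. Each of these 4 lists was thus highest in double-deficient replicate 1 and lowest in double-deficient replicates 2 and 3, as were Col6a1 and Col4a1 with replicate 1 on top. The monocyte markers (8 genes, among them Csf1r, which encodes CD115) had medians of -0.65, -0.17 and 1.07 in double-deficient preparations, against 0.36, -0.12 and 0.17 in ApoE-deficient preparations. The B cell median (7 genes) was -0.38, 1.88 and 1.09 in double-deficient preparations, against 0.38, -0.94 and -0.79 in ApoE-deficient preparations. The macrophage median (8 genes) was 0.16, -0.32 and -0.27 in double-deficient preparations, against -0.01, 0.16 and 0.04 in ApoE-deficient preparations, with 1 of 8 differences above 0. Neutrophil and platelet marker medians were highest in double-deficient replicate 2, at 1.29 (8 genes) and 1.5 (6 genes), with the other 5 preparations between -0.35 and 0.78 and between -0.49 and 0.29. The part of these markers in the collagen differences was not tested.

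Without double-deficient replicate 1, 10 of the 44 genes were lower in CD115+ cells at an unadjusted p under 0.05, where 8.89% of all genes in that fit were. They were Col6a2 (-0.58), Col1a1 (-0.55), Col14a1 (-0.59), Col6a1 (-0.60), Col3a1 (-0.52), Col5a2 (-0.20), Col8a1 (-0.45), Col18a1 (-0.22), Col6a5 (-0.22) and Col1a2 (-0.27). The smallest adjusted p among them was 0.0803 in limma, and 0 passed 0.05. Leaving out any of the other 5 preparations left 0 genes lower at an unadjusted p under 0.05. The 10 genes, found by leaving out the contrary preparation, are thus no separate support for a genotype difference. With array weights, which give arrays far from their group less weight, 7 genes were lower (4.78% of all genes).

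A coarse bound on signal can be read from the rounding of the deposited values, if they are differences of 32-bit numbers. Probe sets whose values are all whole steps of 2 to the minus 20 are then those with log2 signals of 8 or more, although a weaker probe set can meet this by chance, more easily on 6 arrays than on 8. At least 5 usable values, not 0 and given to enough decimals, were also needed, so a strong probe set can miss it. In aorta 4 of the 47 collagen probe sets met it (14.5% of all probe sets did), those of Col3a1 and Col5a2 and 1 of 2 each for Col1a2 and Col6a1. In CD115+ cells also 4 of 47 met it (9.08% of all), those of Col3a1, Col6a3 and Col7a1 and 1 of 2 for Col1a2. Of the markers, 6 of 8 fibroblast, 4 of 8 smooth muscle and 8 of 8 adipocyte genes met it in aorta. So did 5 of 8 endothelial and 5 of 8 macrophage genes, beside 13.4% of all genes. In the CD115+ cells 3 of 8 fibroblast, 4 of 8 smooth muscle and 6 of 8 adipocyte genes met it, among them Acta2, Myh11, Dcn and Adipoq, as did 4 of 8 monocyte genes (Ccr2, Cx3cr1, Nr4a1 and Treml4), beside 8.07% of all genes, while Csf1r itself met it only in aorta. Csf1r stood at 0.00 in ApoE-deficient CD115+ replicates 3 and 4, so its miss there does not show a weak signal. Of the endothelial and macrophage genes, 1 of 8 and 3 of 8 met it in CD115+ cells. Chondrocyte markers met it in neither tissue (0 of 8 in both).

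The collagen-related lists in CD115+ cells also held no gene past an adjusted p of 0.05 in limma. At an unadjusted p under 0.05, Loxl1, a crosslinking enzyme of elastic fibres, differed by -0.38 (SE 0.14), Fkbp14, a prolyl isomerase of the endoplasmic reticulum, by -0.28 (SE 0.09) and P4hb, the beta subunit of prolyl 4-hydroxylase, by -0.20 (SE 0.08). P4ha3 differed by 0.11 (SE 0.04). Of the 15 collagen-binding matrix proteins and of the 14 degrading enzymes and inhibitors 1 each had a difference above 0, beside 44.7% of all genes. In the transforming growth factor beta list 3 of 16 were higher at an unadjusted p under 0.05 and 0 lower (2.06% and 2.33% of all genes), with the receptor gene Tgfbr2 at 0.45 (SE 0.16) and the signal transducers Smad7 and Smad2 at 0.34 (SE 0.11) and 0.24 (SE 0.09). No collagen receptor or laminin-list gene passed an unadjusted p of 0.05 (0 of 11 and 0 of 13).

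The genotype difference in aorta was set against that in CD115+ cells in 1 fit of the 4 group means. None of the 44 genes differed at an adjusted p of 0.05 in limma (0 of 44, and 0% of all genes). Of the 44 differences between tissues 34 (77.3%) were above 0, against 54.7% of all genes. At an unadjusted p under 0.05 the difference was higher in aorta for 3 genes (3.41% of all genes) and lower for 0 (3.49% of all genes). The 3 were Col5a2, whose difference exceeded that in CD115+ cells by 0.75 (SE 0.21, unadjusted p = 0.00398, adjusted p = 0.591 in limma), Col23a1 by 0.35 (SE 0.13) and Col14a1 by 0.71 (SE 0.31). The count was 8 without double-deficient CD115+ replicate 1 (5.46% of all genes) and 6 without double-deficient aorta replicate 3 (4.4% of all genes). The scale of the arrays within a tissue is centred, so this sets differences side by side and not levels.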

How the data were processed

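Total RNA (1 ng per sample) was converted to cDNA, amplified and labelled with biotin for arrays, per the labels' protocols. The authors deposited log values for 33793 probe sets on 14 arrays, read here as log2. For every probe set the median over the arrays of each tissue was 0 within 1e-06, so centring is per probe set and tissue. No source used here gives the log base, the summarisation or the array normalization, and the direction is taken as that of signal, as Ltbr has it. Array medians were 0.0041, 0.0022, -0.0045 and 0.0002 in double-deficient aortas, 0.0012, -0.0064, 0.0052 and -0.0024 in ApoE-deficient aortas, and for CD115+ cells 0.0040, -0.0077 and -0.0042 (double-deficient) and 0.0024, 0.0026 and 0.0015 (ApoE-deficient). The SD over all probe sets was 0.195, 0.249 and 0.217 in double-deficient CD115+ arrays, against 0.134, 0.146 and 0.14 in ApoE-deficient ones.

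The platform annotation gave 1 symbol to 23521 probe sets, several to 1814 and none to 8458. Probe sets of a gene were averaged, no gene was filtered, and 22180 genes entered lmFit and eBayes of limma 3.58.1 (R 4.3.3) for each tissue, with Benjamini-Hochberg adjustment over all genes and a threshold of 0.05. Groups came from the titles. The labels do not say that each sample is a separate mouse, so p-values measure the spread between these samples. Values in every array were given for genes under an unadjusted p of 0.05, the 6 of smallest p per tissue and a fixed set of types I, III, IV, V, VI, VIII, XV and XVIII. The members and lists were chosen with earlier results of these data known. The fits were tested on simulated data. Alternatives were the replicate number as a block, the probe set of largest SD, array medians subtracted, quantile normalization, robust eBayes, array weights, 1 fit of both tissues, a filter on the rounding grid, and each sample left out. Same-numbered aortas deviated from their group means with correlations of 0.166, -0.146, -0.140 and 0.064. Same-numbered CD115+ preparations did so with -0.469 (replicate 1) and -0.292 (replicate 3). Replicate numbers were not taken to pair samples, and results with them as a block are given below.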

Additional observations from a re-analysis of the deposited data

Results flagged for a closer look

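Of 88 groups of 4 aortas (44 genes in 2 genotypes), 3 held a sample far from the other 3, where chance flags about 1 in 20 groups. Col4a3 stood at 0.38 in double-deficient replicate 2, with the other double-deficient aortas between 0.00 and 0.03. Col8a2 stood at 0.22 in ApoE-deficient replicate 2, with the other ApoE-deficient aortas between -0.06 and -0.03. Col9a1 stood at -0.06 in ApoE-deficient replicate 4, with the others between 0.03 and 0.05. CD115+ groups of 3 were not tested for this.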

How the results depend on the processing

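Under every alternative run, 0 collagen chain genes passed an adjusted p of 0.05 in aorta, in CD115+ cells and in the difference between tissues, also in each fit without 1 sample (0 to 0). Few genes of any kind passed in these fits: 0 in every CD115+ fit. The most were 74 in aorta (without ApoE-deficient replicate 3) and 58 between tissues (without double-deficient CD115+ replicate 1). The 0 therefore says little about collagen genes in particular. With the replicate number as a block, the count at an unadjusted p under 0.05 was 1 higher in aorta (4% of all genes), 0 lower in CD115+ cells (0.712%) and 0 higher in the difference between tissues (1.52%), and the CD115+ median was 0.003. With array weights 7 were lower in CD115+ cells (4.78% of all genes). Fits without 1 sample gave 1 to 6 higher and 0 to 1 lower in aorta, 0 to 1 higher and 0 to 10 lower in CD115+ cells, and 1 to 8 higher and 0 to 0 lower in the difference between tissues. In aorta 6 were higher without double-deficient replicate 3 (4.43% of all genes), 4 without ApoE-deficient replicate 4 (4.1%) and 1 without double-deficient replicate 2 (3.45%), and Col6a2 was lower without double-deficient replicate 1 (3.77%). In CD115+ cells the 10 came without double-deficient replicate 1 (8.89%), and Col2a1 was higher without double-deficient replicate 2 (1.62%). Between tissues 8 were higher without double-deficient CD115+ replicate 1 (5.46%), 6 without double-deficient aorta replicate 3 (4.4%), and 1 without double-deficient CD115+ replicate 3 (2.57%) or ApoE-deficient CD115+ replicate 4 (2.48%). The medians of these fits ran from 0.042 to 0.097, from -0.068 to -0.009 and from 0.065 to 0.142. Col6a1 in aorta turned to 0.07 with the probe set of largest SD and to 0.02 with array weights, and ran from -0.12 to 0.11 without 1 sample. Col1a1 (-0.12 to 0.24), Col15a1 (-0.02 to 0.21) and Col18a1 (-0.07 to 0.11) in aorta also turned in such fits. The cause was not tested. The rounding filter left 2 collagen genes in aorta and 3 in CD115+ cells. No detection call was used, so weak chains cannot be told from background.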
